A study of Mus musculus with 10 samples.

Results

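The Hox genes of the 4 mouse clusters were taken as the protein-coding genes of the GENCODE M21 annotation named Hoxa, Hoxb, Hoxc or Hoxd with a paralog number, which gave 39 of 21951 protein-coding genes. Hoxa holds 11 of them on chromosome 6, Hoxb 10 on chromosome 11, Hoxc 9 on chromosome 15 and Hoxd 9 on chromosome 2. In mm10 the spans, from the first to the last base of the member genes, are chr6:52155590-52260880 for Hoxa, chr11:96194316-96368256 for Hoxb, chr15:102921103-103036852 for Hoxc and chr2:74668310-74765142 for Hoxd. Their binding was read from 6 peak lists made by ChIP-seq, in which DNA crosslinked to a protein is recovered with an antibody and sequenced beside input chromatin. The antibodies were against Qki-5, an RNA-binding Qki protein that stays in the nucleus, against RNA polymerase II (Pol II), the enzyme that transcribes protein-coding genes, and against Srebp2, the transcription factor of sterol genes. Each antibody was used in Qk-/- cells and in wild type (WT) cells of a FvB/C57BL6 hybrid background, each time with 1 library. Both genotypes came from neural stem cells (NSCs) that had been kept for 3 days in differentiation medium with the thyroid hormone T3 and are labelled as differentiated oligodendrocytes. According to the methods, the NSCs came from whole brains of newborn Nestin-CreERT2;Qk L/L pups, in which tamoxifen-inducible Cre is driven by the Nestin promoter. To knock out Qk, these NSCs were treated with 4-hydroxytamoxifen in culture. Cultures were used at passage 7 for Qki-5 and Pol II, with 1 input for both antibodies in each genotype, and at passage 8 for Srebp2.

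Hox genes encode homeodomain transcription factors that give cells their position along the head to tail axis. In each cluster the genes stand in the order of their paralog numbers, with the low numbers expressed farther forward, and in the brain their expression is known from the hindbrain and spinal cord rather than from the forebrain and midbrain. Polycomb proteins are known to keep Hox clusters silent, and Trithorax proteins such as Kmt2a to keep them active.

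The Qki-5 antibody recovered the Hoxa cluster at many sites in both genotypes, whereas Pol II peaks were nearly absent there. The other 3 clusters held few peaks or none, and those were WT Qki-5 peaks of Hoxb and Hoxc. Within the Hoxa span 10 of the 427 Qki-5 peaks of Qk-/- cells and 28 of the 7539 Qki-5 peaks of WT cells were found. The Pol II lists had 1 peak each there, of 12835 peaks in Qk-/- cells and 32280 peaks in WT cells, and the Srebp2 lists had none, of 28 peaks in Qk-/- cells and 77 peaks in WT cells, lists too short for an absence to carry weight. With a single library per genotype no comparison has a replicate check beyond these libraries. The peak lists carry no read depth, and fewer cells with a bound site cannot be told apart from weaker binding per cell. In Qk-/- cells, where Qk was knocked out, a peak of the Qki-5 antibody does not by itself show Qki-5 protein. What the antibody recovered there was not tested, and Qki-5 peaks and folds below are those of the antibody in both genotypes.

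The sequences at the summits that the results below turn on are shown as 101 bases of the mm10 plus strand, read 5′ to 3′, so that the sites themselves can be seen. Capitals mark TAAT, the core bound by many homeodomain proteins, CCAAT, the NF-Y box, and ACTAAT, 1 form of the Qki recognition element known from RNA, on either strand. Fold enrichment is the fragment pileup at a summit over the local background expected there.
Hoxa4 promoter, WT Qki-5 (13.9-fold), chr6:52191975-52192075: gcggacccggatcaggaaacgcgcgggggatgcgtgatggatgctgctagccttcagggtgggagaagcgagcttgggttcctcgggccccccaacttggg
Hottip, WT Qki-5 (11.96-fold), chr6:52263189-52263289: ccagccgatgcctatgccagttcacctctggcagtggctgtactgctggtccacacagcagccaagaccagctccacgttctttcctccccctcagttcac
Hoxa7 promoter, WT Qki-5 (11.9-fold), chr6:52218915-52219015: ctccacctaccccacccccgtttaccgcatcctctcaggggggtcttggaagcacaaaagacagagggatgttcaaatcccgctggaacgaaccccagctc
Hoxa3 promoter, WT Qki-5 (11.5-fold), chr6:52211763-52211863: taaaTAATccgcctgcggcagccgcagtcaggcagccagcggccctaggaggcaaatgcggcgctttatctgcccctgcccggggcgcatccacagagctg
Hoxa3 promoter, Qk-/- Qki-5 (8.03-fold), chr6:52213905-52214005: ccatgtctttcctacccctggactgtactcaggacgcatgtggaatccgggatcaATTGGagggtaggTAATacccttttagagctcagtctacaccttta
Upstream of Hoxa4, the WT Qki-5 site with ACTAAT (5.23-fold), chr6:52195278-52195378: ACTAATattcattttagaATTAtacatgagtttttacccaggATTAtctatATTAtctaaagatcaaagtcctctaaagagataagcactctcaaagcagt

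The printed windows differ widely in base composition, with a GC content of 66.3% at Hoxa4 and 28.7% at the site with ACTAAT. The Hoxa4, Hoxa7 and Hottip windows hold none of the motifs.

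Promoters, the 2 kb on either side of each transcription start site (TSS), were read first. A Qki-5 peak lay at 3 of the 39 Hox promoters in Qk-/- cells (7.69%, 95% Clopper-Pearson interval 1.62 to 20.9%), beside 0.858% of the other 21912 protein-coding genes in the same list. In WT cells 10 Hox promoters had a Qki-5 peak (25.6%, interval 13.04 to 42.1%), beside 19.4% of the others, a background inside that interval. These intervals treat genes as independent, although neighboring promoters can share a peak. All 10 WT promoters were of Hoxa. A Pol II peak lay at 1 Hox promoter in Qk-/- cells and at 1 in WT cells (2.56% each, interval 0.0649 to 13.5%), against a background of 46.6% in the Qk-/- list and 54.2% in the WT list. Srebp2 was at no Hox promoter in either genotype, and its background was 0.119% in Qk-/- cells and 0.292% in WT cells.

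**Figure D1:**
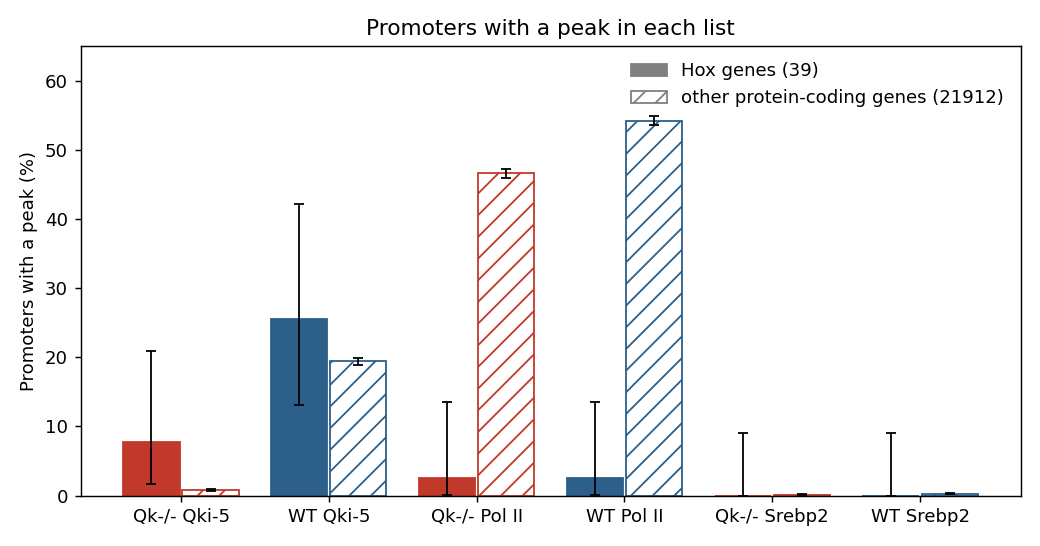
Share of promoters with a peak (y axis, percent) in each of the 6 lists (x axis), for the 39 Hox genes (filled bars) and the 21912 other protein-coding genes (hatched bars), with 95% Clopper-Pearson intervals as error bars. The Hox share of Pol II promoters was 2.56% in both genotypes, beside 46.6% of the other genes in Qk-/- cells and 54.2% in WT cells.

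The Qki-5 and Pol II calls of WT cells hardly met at Hox genes. Of the 10 Hox promoters with a WT Qki-5 peak, 1 had a WT Pol II peak (interval 0.253 to 44.5%), whereas this was so for 96.7% of the 4248 other promoters with a WT Qki-5 peak. The other 9, which included Hoxa3, Hoxa4 and Hoxa7, stood among 148 promoters of protein-coding genes that had Qki-5 without Pol II in WT cells. In Qk-/- cells all 3 Hox promoters with a Qki-5 peak lacked a Pol II peak, as did 55 of the 188 other promoters in that list. The 1 Hox promoter with WT Pol II also had Pol II in Qk-/- cells, and 85.7% of the other WT Pol II promoters did. Of the 10 WT Qki-5 promoters, 3 also had a peak in the Qk-/- list (30.0%, interval 6.67 to 65.2%), beside 4.12% of the others.

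Hoxa2, a hindbrain gene, had no peak at its promoter, and its TSS was 11.02 kb from the nearest Qki-5 peak of Qk-/- cells and 5.94 kb from that of WT cells. From there to the Hoxa11 to Hoxa13 interval Qki-5 peaks of both genotypes followed each other along the cluster, with a median distance of 2335 bp between WT summits of the span. No Pol II peak lay between Hoxa2 and Hoxa13 in either genotype.

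**Figure D2:**
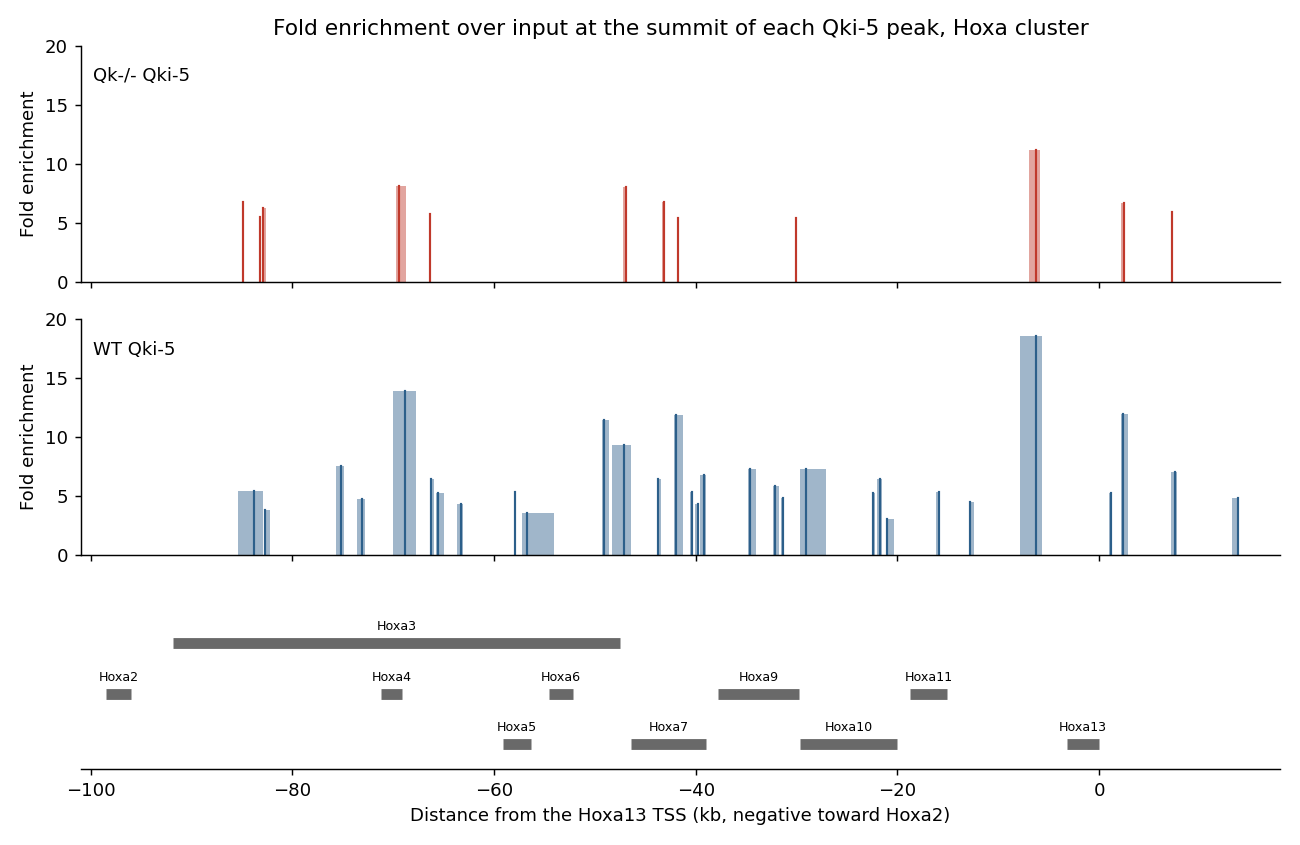
Qki-5 peaks from Hoxa2 to beyond Hoxa13 by distance from the Hoxa13 TSS (x axis, kb), in Qk-/- cells (red, upper) and WT cells (blue, lower). Shaded blocks span each peak, lines mark summits and the height is the fold enrichment over input (y axis), with member genes as grey bars. Peaks spread over the cluster, with the tallest at 11.1-fold in Qk-/- cells and 18.6-fold in WT cells.

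Hoxa3, a gene of the hindbrain and of neck structures, is annotated with a TSS 44.1 kb from its 3′ end, between Hoxa6 and Hoxa7. Its promoter there had 1 Qki-5 peak in Qk-/- cells, at 8.03-fold, and 2 in WT cells, at 11.5-fold and 9.32-fold. The Qk-/- peak overlapped the weaker of the WT peaks, 168 bp from its summit, in an exon of the antisense RNA Hoxaas3. The introns of Hoxa3 also run through the sites near Hoxa4 and Hoxa5. Nearer to its 3′ end lay 3 Qki-5 peaks in Qk-/- cells, of 6.71-fold, 5.47-fold and 6.27-fold, against a broad WT peak of 2527 bp with 5.43-fold and a smaller one of 3.80-fold. From the summit of the broad WT peak the Qk-/- summits were 1102, 594 and 966 bp away, in the same order. The last Qk-/- peak also overlapped the smaller WT peak, with summits 194 bp apart.

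Among the central genes, paralogs 4 to 8, the Hoxa4 promoter had the strongest Qki-5 call in both genotypes. Its peak reached 8.07-fold over 991 bp in Qk-/- cells, with the summit in the coding exon, and 13.9-fold over 2282 bp in WT cells, with the summit 272 bp upstream of the TSS. By fold the Qk-/- peak ranked 131 of 427 and the WT peak 42 of 7539, and the summits were 587 bp apart. Hoxa7 had 2 promoter peaks in Qk-/- cells, of 6.71-fold and 5.39-fold, and 3 in WT cells, of 11.9-fold, 6.40-fold and 5.36-fold. The weaker Qk-/- peak overlapped the strongest WT peak, and the stronger one overlapped none. Hoxa5, which acts in the lung and the skeleton, and Hoxa6 had promoter peaks in WT cells only, of 5.34-fold at most for Hoxa5 and of 3.56-fold for Hoxa6. The Hoxa6 value belongs to a single peak of 3176 bp that covers the Hoxa5 TSS, ends inside the Hoxa6 promoter window and is counted for both. Hoxa6 was not called when the summit had to lie in the promoter.

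The posterior genes, paralogs 9 to 13, had no Qki-5 promoter peak in Qk-/- cells within 2 kb of a basic TSS. With promoters of 2.5 kb Hoxa13 gained one there, and with all GENCODE transcripts Hoxa9 did, with 4 Hox promoters in all each time. In WT cells Hoxa9 had 2, of 7.27-fold and 5.81-fold, and Hoxa10 had 3, of 7.27-fold, 6.44-fold and 3.03-fold. Hoxa11, a limb and kidney gene, had 1 of 5.34-fold in its coding exon, which the antisense RNA Hoxa11os also spans. Hoxa13, the last gene of the cluster and a regulator of the digits and the urogenital tract, had 1 of 5.25-fold, which lay outside the span. By place in the cluster, Qki-5 peaks of Qk-/- cells were at 2 of 4 central and 0 of 4 posterior Hoxa promoters. Those of WT cells were at 4 of 4 central and 4 of 4 posterior ones. The count for Qk-/- cells depends on these promoter definitions.

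The strongest Qki-5 site of the cluster was at no promoter. It lay in the intergenic stretch between Hoxa11 and Hoxa13, with its summit 6132 bp from the Hoxa13 TSS in Qk-/- cells and 6165 bp in WT cells. Enrichment was 11.1-fold over 1120 bp in Qk-/- cells, rank 48 of 427, and 18.6-fold over 2213 bp in WT cells, rank 12 of 7539. The summits were 33 bp apart. Past Hoxa13, the noncoding RNA Hottip, known to act on posterior Hoxa genes, had a peak of 6.65-fold in Qk-/- cells and 11.96-fold in WT cells with summits 102 bp apart. A further pair of peaks beyond it had 5.89-fold in Qk-/- cells and 6.99-fold in WT cells.

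Per length, the Hoxa span held 9.50 Qki-5 peaks per 100 kb in Qk-/- cells, 609 times the density of that list over the genome, and 26.6 per 100 kb in WT cells, 96.2 times the density of its list. The peaks covered 3.67% of the span in Qk-/- cells, against 0.00553% of the genome, and 25.02% in WT cells, against 0.121% of the genome. Of all windows of 105.3 kb that start at a peak summit, 1 at Hoxa had the most peaks in either list, with 12 in Qk-/- cells, followed by 7 on chromosome 17, and 31 in WT cells, followed by 28 on chromosome X. Both windows reach past Hoxa13 and take in the Hottip peaks. Pol II showed no such density, with 0.9497 peaks per 100 kb in both genotypes, which was 2.02 times the genome value in Qk-/- cells and 0.802 times in WT cells.

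**Figure D3:**
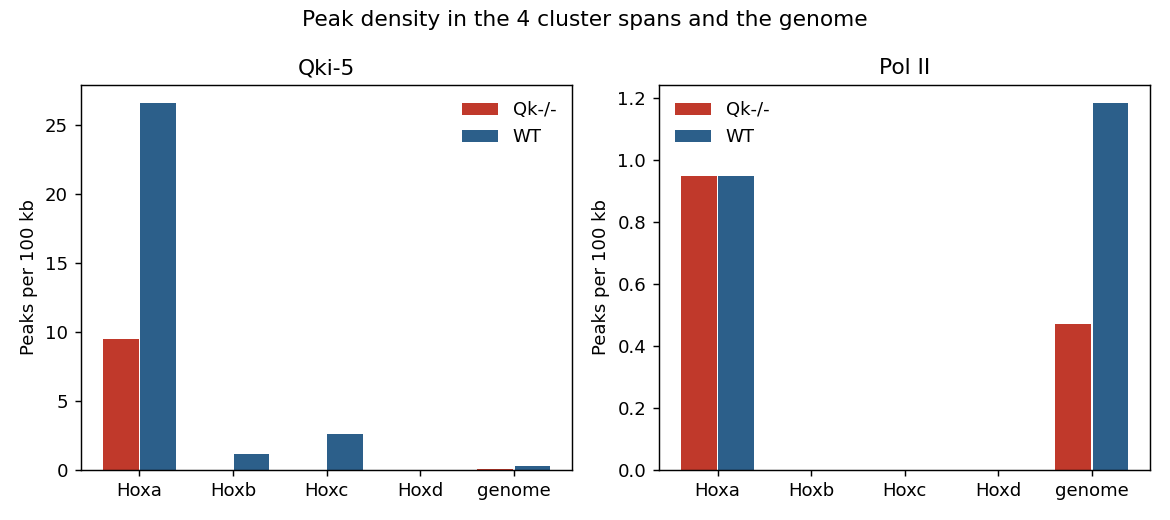
Peaks per 100 kb (y axis) in the 4 cluster spans and in the genome (x axis), for Qki-5 (left) and Pol II (right, on a different scale), in Qk-/- cells (red) and WT cells (blue). Qki-5 stands at 9.50 in Qk-/- cells and 26.6 in WT cells over Hoxa, and absent bars are spans with 0 peaks.

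The WT peaks of Hoxa were wide, and their median height was middling for their list. Their median width was 593 bp, beside 359 bp over the genome, and 6 of 28 were wider than 1 kb, beside 240 of 7511 elsewhere. Their median fold was 5.40, beside 5.34 for the list, and 17 of 28 stood above that list median. In the top 5% of the list by fold were 5 of the 28. In the Qk-/- list the median fold of the 10 Hoxa peaks was 6.49, beside 7.15 for the list, and 3 of 10 stood above the median. Of these 10 peaks 0 were in the top 5% of that list. Their median width was 201.5 bp, beside 239 bp over the genome. Of the 28 WT peaks 15 overlapped a member promoter, and 27 summits lay inside a gene. The matching shares for WT peaks elsewhere were not computed. Hoxa3 alone runs through 44.1 kb of the span, so these counts give the place of the peaks only.

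Part of the WT peaks of Hoxa was also called in Qk-/- cells. A Qk-/- Qki-5 peak overlapped 7 of the 28, beside 3.98% of the 7511 WT peaks outside the span. Among WT peaks of at least 10-fold the counts were 3 of 4 in the span and 88 of 209 outside it. The overlapped WT peaks of Hoxa had a median of 9.32-fold (3.80 to 18.6) and the others a median of 5.34-fold (3.03 to 11.5), so the ranges overlapped. Seen from the Qk-/- list, 8 of 10 Hoxa peaks overlapped a WT peak, beside 327 of 417 elsewhere. The exceptions were a peak at Hoxa7 and a peak of 5.36-fold in an intron of Hoxa9, near the microRNA gene Mir196b. A WT Pol II peak overlapped 1 of the 28 WT Qki-5 peaks (3.57%), beside 79.5% of those outside the span. A Qk-/- Pol II peak overlapped 0 of the 10 Qk-/- Qki-5 peaks, beside 31.7% of the others.

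**Figure D4:**
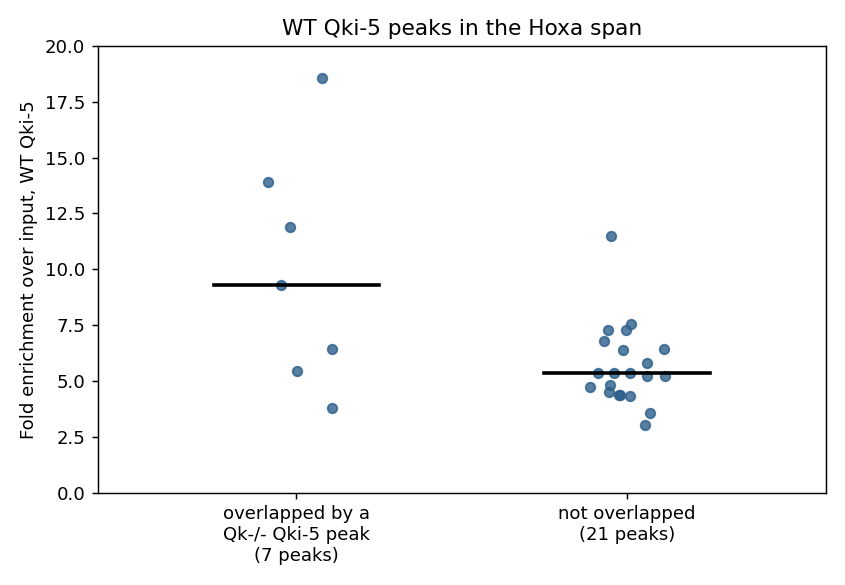
Fold enrichment over input (y axis) of the 28 WT Qki-5 peaks in the Hoxa span, split by whether a Qki-5 peak of Qk-/- cells overlapped them (7 peaks) or not (21 peaks). Points are peaks, placed sideways at random, and lines are medians, at 9.32-fold for the overlapped peaks and 5.34-fold for the others.

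The other clusters gave few peaks. Hoxb had 2 WT Qki-5 peaks, of 4.78-fold at 8516 bp from the Hoxb13 TSS and 6.16-fold at 2984 bp from the Hoxb8 TSS. Hoxc had 3, of 5.06-fold at 2934 bp from the Hoxc10 TSS, 4.60-fold in an intron of Hoxc5 and 5.34-fold in an intron of Hoxc4. Hoxd had 0. Although few, the WT Qki-5 peaks stood at 1.15 per 100 kb in Hoxb and 2.59 per 100 kb in Hoxc. That was 4.16 times the genome density of the list in Hoxb and 9.38 times in Hoxc, beside 96.2 times in Hoxa. In Qk-/- cells no Qki-5 peak lay in these 3 spans, and Pol II and Srebp2 peaks were absent from them in both genotypes. The 28 genes of these clusters were 129 to 2287 kb from the nearest Qki-5 peak in Qk-/- cells, with a median of 303 kb, and 2.75 to 158 kb in WT cells, with a median of 33.1 kb. The genes with no promoter peak in any list were Hoxa2, the 10 Hoxb genes (Hoxb1 to Hoxb9 and Hoxb13), the 9 Hoxc genes (Hoxc4, Hoxc5, Hoxc6 and Hoxc8 to Hoxc13) and the 9 Hoxd genes (Hoxd1, Hoxd3, Hoxd4 and Hoxd8 to Hoxd13). For the 28 of them outside Hoxa the nearest Pol II peaks were 62.7 to 289 kb away in Qk-/- cells and 62.6 to 289 kb away in WT cells. With other transcript sets WT Qki-5 reached a few of these genes, Hoxc6 with all GENCODE transcripts (11 Hox promoters in all) and Hoxb8 and Hoxc6 with those of RefSeq (12 Hox promoters).

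The 4 clusters were close to each other in GC content, which was 50.0% in Hoxa, 48.9% in Hoxb, 49.0% in Hoxc and 49.4% in Hoxd. Bases marked as repeats made up 13.4% of Hoxa, 24.6% of Hoxb, 15.9% of Hoxc and 14.4% of Hoxd, beside 36.4% of the genome. CpG dinucleotides per kb were 29.9 in Hoxa, 20.9 in Hoxb, 21.5 in Hoxc and 28.05 in Hoxd. Hoxd, with 0 Qki-5 peaks, was the closest to Hoxa in CpG density, and any part of CpG density in the peaks was not tested. At the 28 WT Qki-5 summits of Hoxa, windows of 201 bp had a median GC content of 49.0%, beside 60.2% at the 7505 other summits. The GC box GGGCGG was in 7.14% of them, beside 36.7% of the others, and CCAAT in 21.4%, beside 19.4%. TAAT was in 57.1%, beside 31.9%, and ACTAAC or ACTAAT in 7.14%, beside 5.37%. All motifs were searched on both strands, and whether the difference in GC content accounts for the shares was not tested. In the Qk-/- list TAAT was in 40.0% of the 10 windows of Hoxa, beside 49.4% of the 415 others.

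Most genes that regulate Hox clusters or act with Hox proteins had Pol II at the promoter. Of 39 such genes, 2 had a Qki-5 peak at the promoter in Qk-/- cells and 19 in WT cells, and 31 had a Pol II peak in Qk-/- cells and 35 in WT cells. The background over protein-coding genes other than Hox was 0.858% for Qki-5 in Qk-/- cells, 19.4% for Qki-5 in WT cells, 46.6% for Pol II in Qk-/- cells and 54.2% for Pol II in WT cells. Of the 19 with WT Qki-5, 18 also had WT Pol II, a share close to the background of 96.7%. Seen from Pol II, 18 of the 35 with WT Pol II had WT Qki-5. The background was 34.6% of the promoters with WT Pol II of protein-coding genes other than Hox. Kmt2a, the histone methyltransferase that maintains Hox expression, had Qki-5 antibody peaks of 28.8-fold in Qk-/- cells and 27.2-fold in WT cells. Its 28.8-fold is the highest value of the Qk-/- Qki-5 list. Its Pol II peaks were 15.1-fold in Qk-/- cells and 26.5-fold in WT cells. Pol II folds were lower in the Qk-/- list in general. The median highest fold at bound promoters of protein-coding genes other than Hox was 10.2 in Qk-/- cells and 15.8 in WT cells. The exception among the 19, with no Pol II peak in either genotype, was Meis2, a homeodomain cofactor of Hox proteins. Its Qki-5 antibody peaks were 8.48-fold in Qk-/- cells and 9.48-fold in WT cells. Other cofactors with WT Qki-5 included Meis1 at 4.43-fold and Pknox1 at 3.95-fold. Rarb, a retinoic acid receptor, had 6.56-fold.

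Polycomb genes had Pol II at all 15 promoters in both genotypes and WT Qki-5 at 11, beside backgrounds of 46.6% for Pol II in Qk-/- cells, 54.2% for Pol II in WT cells and 19.4% for WT Qki-5. Among promoters with WT Pol II the background for WT Qki-5 was higher, at 34.6%. The highest WT Qki-5 folds were those of Ring1, a ubiquitin ligase of Polycomb complex PRC1, at 7.80-fold, Cbx2, a reader of methylated histone H3, at 5.81-fold, and Bmi1, a partner of Ring1, at 5.28-fold. Ezh2, the histone methyltransferase of PRC2, had 4.78-fold, and its partners Suz12 and Eed had 4.23-fold and 3.49-fold. Phc1, Phc2, Jarid2, Cbx8 and Rnf2 had between 2.90-fold and 5.23-fold. On the Trithorax side, Kdm6a, which removes the Polycomb mark, had 5.48-fold and Psip1 5.11-fold. None of these but Kmt2a and Meis2 had a Qki-5 promoter peak in Qk-/- cells. Among the highest Pol II folds of the list were those of Kdm6a at 32.2-fold in Qk-/- cells and 35.7-fold in WT cells, Ring1 at 18.7-fold in Qk-/- cells and 37.9-fold in WT cells, Phc2 at 15.1-fold in Qk-/- cells and 36.3-fold in WT cells, and the cofactor gene Pbx2 at 16.5-fold in Qk-/- cells and 34.1-fold in WT cells.

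Genes of the forebrain and midbrain were included because the cultures came from whole brain. Of 13 such genes, 7 had Pol II at the promoter in Qk-/- cells and the same 7 in WT cells, shares near the backgrounds of 46.6% in Qk-/- cells and 54.2% in WT cells. Among them were Emx2 at 12.2-fold in Qk-/- cells and 18.1-fold in WT cells and Pax6 at 9.23-fold in Qk-/- cells and 17.1-fold in WT cells. WT Qki-5 was at 4 of the 13, beside a background of 19.4%, with Dlx2 at 9.59-fold, Emx2 at 5.93-fold, En1 at 5.61-fold and Dlx1 at 4.36-fold, and 3 of these, Dlx1, Dlx2 and En1, had no Pol II peak. No gene of the list had a Qki-5 promoter peak in Qk-/- cells.

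As to the labelled cell type, 4 of 14 oligodendrocyte genes, Cnp, Olig1, Olig2 and Gstp1, had a Pol II promoter peak in both genotypes, beside 46.6% of protein-coding genes in Qk-/- cells and 54.2% in WT cells, whereas Mbp, Mag, Mog and Sox10 had none in either. Of 6 genes of neural stem cells and astrocytes, 5 had one in both genotypes, with Slc1a3 at 9.57-fold in Qk-/- cells and 43.7-fold in WT cells, and Sox2 at 21.6-fold in Qk-/- cells and 40.8-fold in WT cells. These stand beside medians of 10.2-fold in Qk-/- cells and 15.8-fold in WT cells at bound promoters of protein-coding genes other than Hox. Of 4 precursor genes, 2 had a Pol II promoter peak in Qk-/- cells and 3 in WT cells. Of 4 neuronal genes, 1 had such a peak in Qk-/- cells and 2 in WT cells. Microglial genes had none. The part of cell composition in the Hox calls was not tested.

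Noncoding and other genes within 50 kb of the spans were counted in the same way. Near Hoxa 10 of 30 had Qki-5 at the promoter in Qk-/- cells and 19 in WT cells, and 3 had Pol II in Qk-/- cells and 4 in WT cells. Over all annotated genes the shares were 0.503% for Qki-5 in Qk-/- cells, 10.2% for Qki-5 in WT cells, 23.0% for Pol II in Qk-/- cells and 28.4% for Pol II in WT cells. Several of these neighbors share a peak with each other or with a Hox gene, such as Hottip with the small RNA genes beside it, so that the gene counts exceed the number of sites. Hoxaas3 had 6.71-fold in Qk-/- cells and 5.43-fold in WT cells, and Mir196b, a microRNA gene known to act on Hox transcripts, 5.36-fold in Qk-/- cells and 7.27-fold in WT cells. Evx1os, beside the homeobox gene Evx1, had 8.92-fold in Qk-/- cells and 12.8-fold in WT cells. The 12 neighbors of Hoxb, 8 of Hoxc and 13 of Hoxd had no promoter peak in any list.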

How the data were processed

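ChIP-seq was analyzed from 6 deposited peak lists of 3 antibodies in Qk-/- and WT cells, with 4 inputs that have no list. In the study's methods the reads were trimmed (Trim Galore) and aligned (Bowtie2) by the authors, who then removed duplicates and called peaks against the input of the same genotype with MACS2 at a q-value of 0.05. The processing notes of the submitters list MACS2 2.1.2, Bowtie 1.2.2, bcl2fastq and the build mm10. Which aligner made the lists is not given in the sources used here. The fold enrichment deposited by the authors is the ratio of the summit pileup to the local background. The −log10 p and −log10 q values deposited by the authors are the MACS2 test at the summit. The deposited score equals the −log10 q-value times 10, cut to a whole number. The Qki-5 and Srebp2 lists used here are much shorter than the peak numbers given in the study's text, for a reason not given in the sources used here, and every count of peaks, overlaps and absences rests on these shorter lists. No read totals are in these lists, so depth and precision are unknown, and fold values were ranked only within a list. Peaks of Qki-5 and of Pol II carry names that begin with mNSC.

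Lists were read with pandas 2.3.3, numpy 2.4.6 and scipy 1.17.1 in Python 3.11.15 and drawn with matplotlib 3.10.9. A promoter was the 2 kb on either side of a TSS of the GENCODE M21 basic annotation (GRCm38), and a peak counted when at least 1 bp overlapped it. Sequences came from RefSeq's GRCm38.p6, which is mm10. No test was made, since each antibody and genotype had 1 library. Intervals cover counting of genes only. The members, the gene lists and the alternatives were chosen with earlier results of these data known. The genes named are Hox genes with a promoter peak, every Qki-5 peak of the spans that the text describes, and list genes or neighbors with Qki-5 peaks or the highest Pol II folds; other neighbors are given as counts, and cell type markers and genes without a peak are named as examples. The overlap code was tested on simulated data. Alternatives changed the q-value and fold thresholds, the promoter width, the overlap rule, the transcripts, the span and the length of the WT list. Some genes and sequences covered by these rules are not reported here.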

Additional observations from a re-analysis of the deposited data

How the results depend on the processing

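No paired analysis was possible because each antibody and genotype had 1 library and the labels give no replicate numbers. Of 87 recomputed counts whose reported value was above 0, 79 stayed within 1.5 times of it. The other 108 were 0 and stayed 0, which says nothing about stability where a threshold was made stricter. Qki-5 peaks of Qk-/- cells were at 4 Hox promoters with promoters of 2.5 kb, which add Hoxa13, and at 4 with full GENCODE TSSs, which add Hoxa9. With peaks given to the nearest TSS only, 6 Hox promoters had WT Qki-5, and 0 had Pol II in Qk-/- or WT cells. Qki-5 of Qk-/- cells was then at 2, Hoxa4 and Hoxa7, and Hoxa3 was lost. The WT Qki-5 list was also cut to its 427 strongest peaks by −log10 q, not by fold, the length of the Qk-/- list. Then 3 Hox promoters remained, those of Hoxa3, Hoxa4 and Hoxa7. The Hoxa span held 10 peaks of the Qk-/- list, against 4 of the shortened WT list. At a fold enrichment of at least 5, 0 Hox promoters had both WT Qki-5 and WT Pol II, and Hoxb kept 1 WT Qki-5 peak. WT Pol II peaks numbered 2 with the Hoxa span widened by 10 kb and 3 with 50 kb. The alternatives full GENCODE TSSs (11 WT Qki-5 Hox promoters), RefSeq TSSs (12) and setting aside WT peaks of Qki-5 with a Qk-/- partner (9) were chosen after seeing the data. The lists carry no depth, so an absent peak is a call not made at the authors' threshold, not absence of binding.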
